A study of Mus musculus with 8 samples.

Results

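The genes described here encode the subunits of the lysosomal proton pump, the cathepsin proteases and the lysosomal membrane glycoproteins Lamp1 and Lamp2. They were taken by name: every gene whose symbol in the platform annotation begins with Atp6v0 or Atp6v1, 14 named cathepsins, and the 2 Lamp genes. The rule found 38 genes of 22180 on the array, each read from its brightest probe set with 1 gene symbol. They comprised 8 genes of the membrane sector V0, 13 of the catalytic sector V1, 14 cathepsins, 2 Lamp genes, and Atp6v1fnb, which the name pattern caught as a neighbour of Atp6v1f and which is not known as a pump subunit. Atp6v0c, which encodes the main proteolipid of the rotor ring, had no probe set with its symbol alone and was not analysed here.

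The lysosome digests proteins, lipids and sugars at acid pH. The vacuolar proton pump makes that acidity: the V1 sector in the cytosol burns ATP and turns a rotor in the V0 sector, which carries protons across the membrane. Cathepsins are proteases, most of which are activated by the low pH, and Lamp1 and Lamp2 line the inside of the membrane. In heart muscle lysosomes complete autophagy, and in macrophages and fibroblasts some cathepsins also act on ingested or secreted protein.

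RNA was measured on Affymetrix arrays in whole hearts taken 1 week after surgery from male mice of the C57Bl6N strain. The surgery was transverse aortic constriction (TAC), an operation that narrows the aorta and puts the left ventricle under pressure. Of the 8 arrays, 4 came from CITED4 knockout hearts and 4 from floxed control hearts, which carry the targeted allele between recombination sites. Every heart had been operated, so pressure load was common to both groups and no unloaded heart was compared. No source used here gives the Cre driver, the Cre status of the controls or the age of the mice. Signals are on the log2 scale, on which a difference of 1 is a doubling, and signals of different genes cannot be set against each other because their probes differ. Precision is limited by the small number of arrays. No source states how animals or array runs were assigned, so a p-value here reflects how far these particular samples scatter, which may be partly technical.

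Array medians lay between 4.29 and 4.33 (log2). All 4 knockout hearts had less Cited4 signal than any control heart, by 0.91 on the log2 scale (-0.91 ± 0.12, SE; exact two-sided permutation p = 0.0286, the smallest that 4 against 4 arrays allow; limma adjusted p = 0.277). Of the 15086 genes tested, limma called 0 at an adjusted p of 0.05, while 1697 had an unadjusted p under 0.05. Knockout replicates 1 and 4 and control replicate 1 stood apart from their groups in marker lists of other cell types. The mean log2 signal of 10 fibroblast markers was 10.193 and 10.074 in those knockout hearts and 9.883 in that control heart, against 8.997 to 9.718 in the other 5 hearts. Knockout replicate 2 had high atrial markers, with a mean log2 signal over 7 genes of 8.09 against 6.05 to 6.69 on the other arrays. In that heart Sln was at 9.31 and Myl7 at 9.02. On the other arrays they lay at 2.75 to 4.98 and at 4.03 to 5.04, low for samples that hold atrium. Whether all samples held the same share of atrium was not tested.

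Several of the genes share a promoter element, which is shown first because it is the best known link between lysosomal genes. The transcription factor TFEB and its relatives bind the letters TCACGTG in promoters of lysosomal genes. Promoter windows in the RefSeq table (GRCm38.p6; 250 bases before to 50 after the start of each gene) were found for 28 of the 38 genes. Of these, 7 held TCACGTG on either strand (25%), against 6.4% of 11675 genes tested on the arrays and 4.29% of all 27025 genes with a window. Those 7 were Atp6v0b, Atp6v0d1, Atp6v0e, Atp6v1a, Ctsa, Ctsd and Lamp1. The shorter core CACGTG, which TCACGTG contains, was found in 9 of the 28, with Ctsf and Ctsl added. A match describes letters in a window and no binding was measured. Members without an entry in the table were Atp6v0a2, Atp6v0d2, Atp6v1b2, Atp6v1c1, Atp6v1g1, Atp6v1h, Ctsb, Ctse, Ctsh and Ctsw.

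The stretches below show the element where it lies upstream of the start, 5′ to 3′ on the strand of the gene, with TCACGTG, its reverse complement CACGTGA or the overlap of both in capitals. Lamp1 held 4 copies of the element, the farthest with its CACGTG core beginning 61 bases before the start, and Atp6v0b held 2.
Lamp1, chr8:13159080-13159160, plus strand: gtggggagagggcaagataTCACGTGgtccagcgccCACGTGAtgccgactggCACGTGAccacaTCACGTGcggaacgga
Atp6v0b, chr4:117887330-117887385, minus strand: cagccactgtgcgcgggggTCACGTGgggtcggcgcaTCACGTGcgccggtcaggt
Atp6v1a, chr16:44139365-44139410, minus strand: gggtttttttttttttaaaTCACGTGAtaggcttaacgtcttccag
Ctsd, chr7:142387900-142387945, minus strand: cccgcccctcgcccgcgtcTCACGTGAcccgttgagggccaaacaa
Ctsa, chr2:164833741-164833772, plus strand: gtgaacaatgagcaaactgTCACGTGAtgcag
The 5 genes belong to different parts of the lysosome: a membrane protein, a V0 and a V1 subunit, and an aspartic and a serine protease. In Ctsd another copy lay 245 bases before the start, and in Ctsa another copy lay just after the start. In Atp6v0d1 the element lay across the start, and in Atp6v0e it lay just after it.

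None of the 33 tested members passed the test, and most differed little between the genotypes. A gene was tested when its mean over the 8 arrays reached 3.80, the 40th percentile of all probe sets. At an adjusted p of 0.05 limma called 0 of the 33 members and 0% of all genes, and adjusted p-values ran from 0.421 to 0.997. Without adjustment, 3 members had a p under 0.05, namely Atp6v0a4, Ctsz and Ctss, all higher in the knockout. That is 9.09% of the tested members, below the 11.2% of all genes at that p (5.64% higher and 5.61% lower), so with all arrays the count does not set the members apart. The share of members was 18.2% (6 genes) without control replicate 1 and 21.2% (7 genes) without knockout replicate 2, above the 14.3% and 15.8% of all genes in those settings. Without any other single array it was 6.06% to 12.1%, against 6.54% to 14.4% of all genes. It was above all genes in some of those settings and below in others. By sign, 25 of the 33 were higher in the knockout and 8 lower (75.8% higher, against 51.2% of all genes). The median difference was 0.11, against 0.0038 over all genes tested. Atp6v0a4 and Ctse had control means under the filter and were tested only through their knockout signals. Without them 23 of 31 were higher (median 0.10), and 2 of the 31 had an unadjusted limma p under 0.05. The shares of members given above include both genes. The sign of 11 of the 33 differences turned under at least 1 of the alternative settings. An absolute difference under 0.2 was measured in 27 of the 33.

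**Figure D1:**
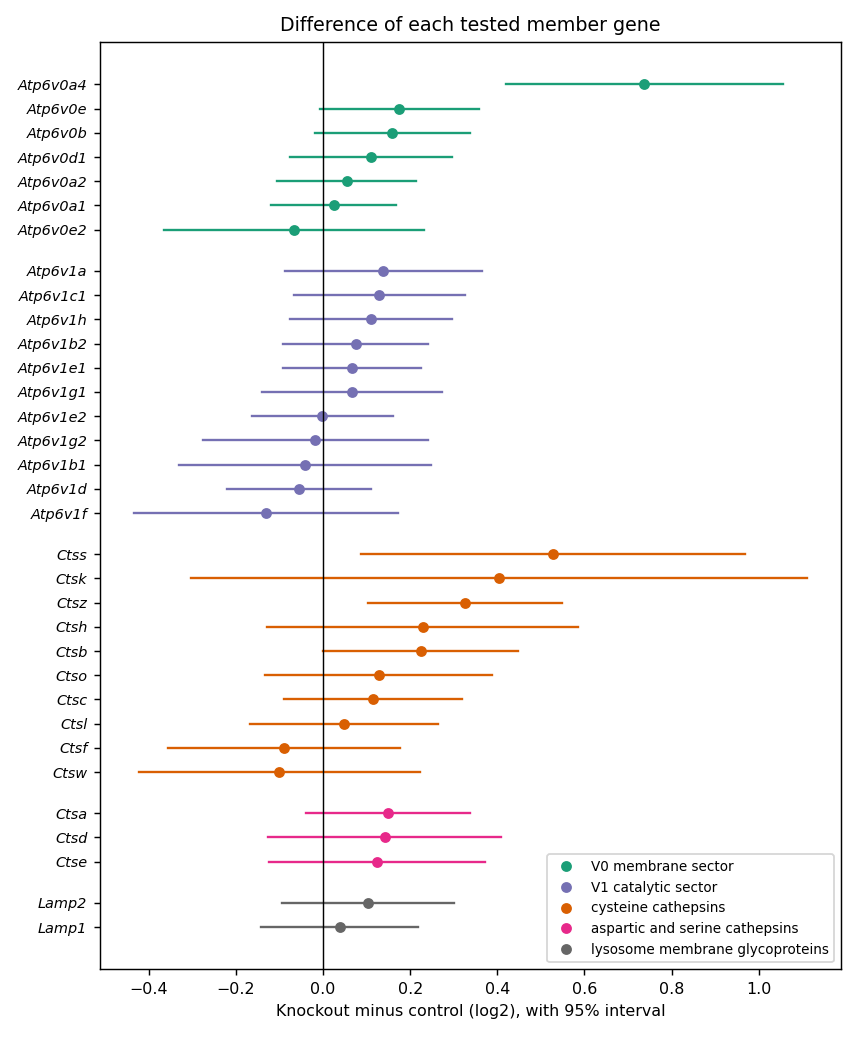
Difference between knockout and control hearts (log2, x axis) for each of the 33 tested genes, with its 95% interval from limma, ordered by size within 5 functional groups. The intervals of Atp6v0a4, Ctsz and Ctss lie above 0, and those of the other 30 genes reach or cross it.

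Cysteine cathepsins, relatives of papain, held the wider differences among the proteases. Ctss encodes cathepsin S, which antigen-presenting cells and macrophages use to trim the MHC class II invariant chain. Its signals in control replicates 1 to 4 were 8.57, 8.07, 7.72 and 8.06, and in knockout replicates 1 to 4 they were 9.05, 8.34, 8.38 and 8.76. The groups overlapped through control replicate 1, which lay above knockout replicates 2 and 3. The difference was 0.53 ± 0.20 (SE; limma p = 0.0235, adjusted p = 0.421; exact two-sided permutation p = 0.0857), or 144% of the control signal. Without knockout replicates 1 and 4, a setting chosen after seeing the data, it was 0.26.

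Ctsz encodes cathepsin Z, also called cathepsin X, a carboxypeptidase found in monocytes and macrophages. Control signals were 8.54, 8.28, 8.30 and 8.28, and knockout signals were 8.87, 8.63, 8.51 and 8.70. Of the knockout hearts 3 lay above all controls, and knockout replicate 3 lay just under control replicate 1. Its difference was 0.33 ± 0.10 (SE; limma p = 0.00839, adjusted p = 0.421; exact two-sided permutation p = 0.0571), or 125% of control. Without knockout replicates 1 and 4 it was 0.22.

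Ctsb encodes cathepsin B, a protease present in most cells. Its signals were 11.66, 11.38, 11.50 and 11.66 in control hearts and 11.99, 11.63, 11.74 and 11.74 in knockout hearts. Knockout replicate 2 lay within the control range and the other 3 above it. The difference was 0.22 ± 0.10 (SE; limma p = 0.0502, adjusted p = 0.445; exact two-sided permutation p = 0.0857), and 0.13 without knockout replicates 1 and 4. Signals of Ctsb, Ctsd and Lamp1 exceeded the 99th percentile of all genes (10.34), a range in which arrays can understate differences.

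Ctsk encodes cathepsin K, a collagen-degrading enzyme of osteoclasts that fibroblasts also make. Control hearts gave 6.67, 5.37, 5.30 and 6.06, and knockout hearts 6.72, 6.26, 5.58 and 6.44. Control replicate 1 was almost as high as knockout replicate 1, and knockout replicate 3 lay between the low controls and control replicate 4. The difference of 0.40 ± 0.32 (SE; limma adjusted p = 0.636) was smaller than the spread within the groups, an SD of 0.57 that was the widest of the 33 genes. It was 0.07 without knockout replicates 1 and 4, and 0.68 without control replicate 1.

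The same hearts were high for Ctsk and for the mean of the fibroblast markers. This was not particular to fibroblast markers. The mean of 8 smooth muscle and pericyte markers was 8.109 in control replicate 1. It was 8.355 and 8.261 in knockout replicates 1 and 4, and 7.563 to 7.829 in the other controls. Of those 8 markers 4 were higher in the knockout and 4 lower. Fibroblast marker means were 9.883, 9.101, 8.997 and 9.321 in control replicates 1 to 4 and 10.193, 9.718, 9.289 and 10.074 in knockout replicates 1 to 4. The list had 9 of 10 genes higher in the knockout, with a median difference of 0.55 and 0 called (5 at an unadjusted p under 0.05). Its genes did not move alike. Fn1, Col1a2 and Col1a1 differed by 1.17, 0.88 and 0.85, but Pdgfra, Dpt and Dcn by 0.09, 0.06 and -0.04. Dcn had its lowest signal in knockout replicate 1 (11.29). For macrophage markers 16 of 20 were higher, with a median of 0.13 and 0 called. Their mean log2 signal ran from 7.18 to 7.38 in control hearts and from 7.23 to 7.55 in knockout hearts, and all 20 passed the filter. The macrophage mean was above its 8-array mean in knockout replicates 1 and 3 and control replicate 1, while the cathepsin mean was highest in knockout replicates 1 and 4. The macrophage markers did not move alike. Lyve1 was at 9.28 in knockout replicate 3 and 7.55 in knockout replicate 1. Cd163, Cd68, C1qa and C1qb had more signal in knockout replicate 3 than 4. Ms4a7 was at 7.79, 6.63, 6.44 and 6.81 in control hearts and 7.92, 7.33, 7.05 and 7.47 in knockout hearts. Cybb, Fcgr1, Adgre1 and Cx3cr1 likewise had more signal in knockout replicate 4 than 3. In each, control replicate 1 was the highest control. The part of any of these cell types in the cathepsin signals was not tested. In whole heart RNA more cells of a type and more RNA per cell cannot be told apart.

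**Figure D2:**
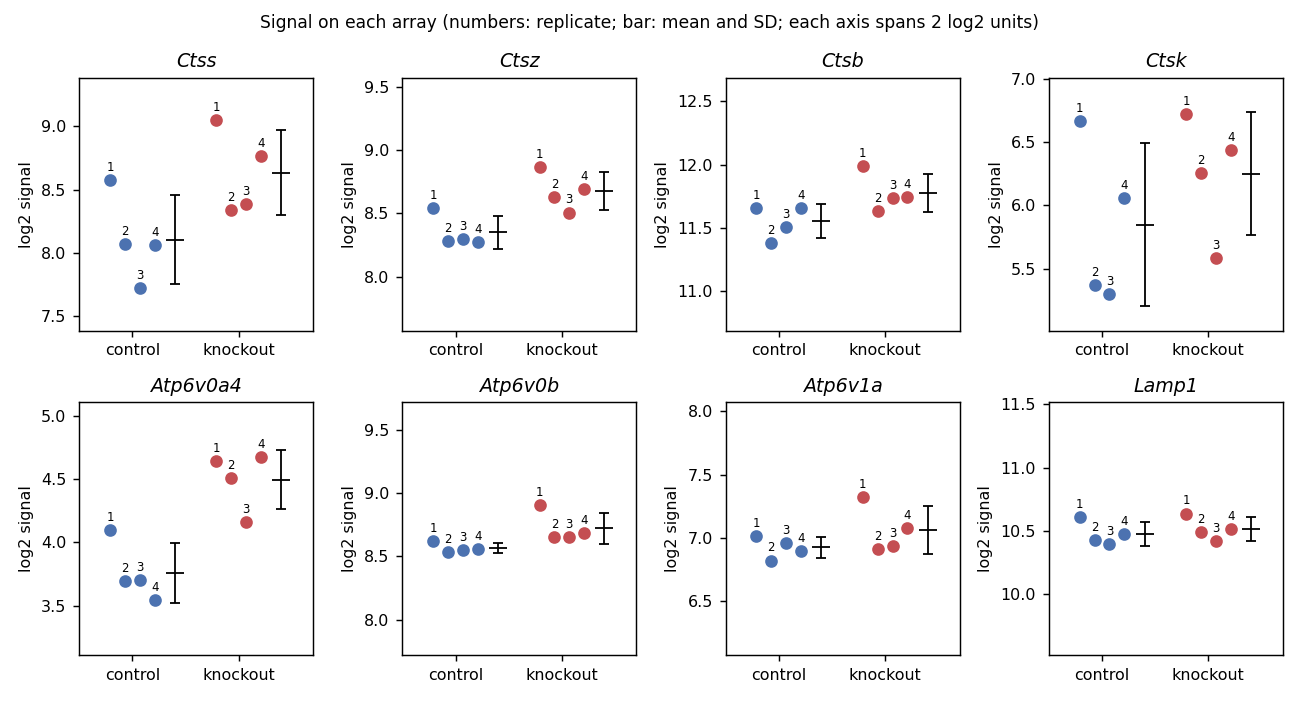
Signal on each of the 8 arrays (log2, y axis; every panel spans 2 log2 units) for 8 genes, with the replicate number above each point and a bar for the mean and SD of each group of 4. Control replicate 1 sits above the other controls for Ctss (8.57), Ctsz (8.54) and Ctsk (6.67), while the Lamp1 points lie between 10.40 and 10.64 in both groups.

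The other cysteine cathepsins differed by less. Ctsl encodes cathepsin L, a broad protease needed for normal heart structure in mice. It was at 8.81, 8.73, 8.62 and 8.72 in control hearts and at 8.90, 8.65, 8.59 and 8.94 in knockout hearts. Knockout replicates 1 and 4 lay above the controls, replicate 2 within them and replicate 3 below them. The difference was 0.05 ± 0.10 (SE; limma adjusted p = 0.872), and -0.10 without knockout replicates 1 and 4. Ctsh, an aminopeptidase, differed by 0.23 ± 0.16, Ctso by 0.13 ± 0.12, and Ctsc, which activates granule serine proteases, by 0.11 ± 0.09. Ctsf (-0.09 ± 0.12) and Ctsw (-0.10 ± 0.14), the latter known from cytotoxic lymphocytes, were the cathepsins with lower means in the knockout. Neither value was stable when hearts were left out. Ctsw was at 0.04 without knockout replicate 1. Ctsf was at -0.21 without knockout replicate 2, with no overlap and an unadjusted p under 0.05 (limma adjusted p = 0.289), at -0.01 without knockout replicate 4 and at 0.06 without knockout replicates 1 and 4. Of 13 T and NK cell markers, 7 lay below the filter, among them Cd3d, Cd3g, Gzma and Gzmb. Among the 6 tested, 4 were higher in the knockout and 2 lower (median 0.15), with 0 called. Klrb1c had a control mean of 3.67, under the filter, and was tested only through its knockout signals. The counts and the median include it. Klrb1c differed by 0.36 and Nkg7 by 0.28, the latter with no overlap between the groups. The 2 lower were Cd4 at -0.19 and Prf1 at -0.12. The part of these cells in the Ctsw signal was not tested.

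Among the remaining proteases, Ctsd encodes cathepsin D, the main aspartic protease of the lysosome. It measured 11.30, 10.91, 10.95 and 11.04 in control hearts and 11.44, 11.08, 10.99 and 11.26 in knockout hearts. As with Ctss, control replicate 1 lay among the knockouts. The difference was 0.14 ± 0.12 (SE; limma adjusted p = 0.662), and -0.02 without knockout replicates 1 and 4. Ctsa, a serine carboxypeptidase that also protects lysosomal glycosidases, differed by 0.15 ± 0.08, with all 4 knockout hearts above the control median and 2 above every control. Ctse, an aspartic protease of stomach and immune cells, had a control mean of 3.77, under the filter, and was tested only through its knockout signals. Its difference of 0.12 ± 0.11 was 0.01 without knockout replicate 4. Ctsg, the cathepsin G of neutrophil and mast cell granules, lay below the filter at 3.32 in control and 3.41 in knockout hearts. For neutrophils 8 of 12 markers lay below the filter, among them S100a8, S100a9 and Ly6g, and for mast cells 6 of 9, among them Cma1 and Mcpt4. Of the 4 tested neutrophil markers 3 were higher in the knockout and 1 lower (median 0.13), with 0 called. Cxcr2, the lower marker, had a knockout mean of 3.75, under the filter, and was tested only through its control signals. The 3 tested mast cell markers were higher (median 0.13), also with 0 called. Among them Hdc had a control mean of 3.77, under the filter, and was tested only through its knockout signals.

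Of the 13 tested cathepsins 11 were higher in the knockout and 2 lower (median difference 0.14), and 10 of 12 were higher without Ctse (median 0.15). Within groups the cathepsins also varied more between hearts than the pump did: the median SD was 0.18 for cathepsins and 0.10 for the 18 tested pump subunits, against 0.15 over all genes tested. This comparison of spreads was not tested. Knockout replicate 1 held the highest signal of the 8 arrays in 16 of the 33 genes and knockout replicate 4 in 10, while control replicates 2 and 3 held the lowest in 8 and 7.

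The 17 tested pump subunits other than Atp6v0a4 differed by -0.13 to 0.18 between the genotypes, with 11 higher and 6 lower in the knockout (median 0.07). Atp6v0a4 is given apart because it entered the test only through its knockout signals: its control mean of 3.76 lay under the filter of 3.80. It encodes the a4 isoform of the large V0 membrane subunit, known from acid-secreting cells of the kidney and the inner ear. Its signals were 4.10, 3.70, 3.70 and 3.54 in control hearts and 4.64, 4.51, 4.16 and 4.67 in knockout hearts. The groups did not overlap, although knockout replicate 3 lay only just above control replicate 1. Its difference of 0.74 ± 0.14 (SE; 167% of control) had a limma p of 0.000417 and an adjusted p of 0.421, with an exact two-sided permutation p of 0.0286. The difference was 0.58 without knockout replicates 1 and 4, and from 0.66 to 0.85 when single arrays were left out. The signal is near the low end of the arrays, and the gene was not tested with the filter at the 60th percentile. Atp6v1b1, the B subunit isoform known from the same kidney cells, differed by -0.04 ± 0.13.

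The other a subunits place the pump in different membranes. Atp6v0a1 was between 8.75 and 8.83 on all 8 arrays, and its difference was 0.02 ± 0.06. Atp6v0a2, the Golgi isoform, differed by 0.05 ± 0.07. The a3 isoform gene Tcirg1, which the name rule does not cover and which was looked up after the values were seen, went from 5.98 to 6.15, a difference of 0.17 ± 0.12 (limma adjusted p = 0.581).

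Atp6v0b encodes a proteolipid of the rotor ring, and its promoter is shown above. It measured 8.62, 8.53, 8.55 and 8.56 in control hearts and 8.90, 8.65, 8.65 and 8.68 in knockout hearts. Every knockout heart lay above every control, but 3 of them by a narrow margin. The difference was 0.16 ± 0.08 (SE; limma adjusted p = 0.48; exact two-sided permutation p = 0.0286, or 112% of control). It was 0.10 without knockout replicate 1 and 0.09 without knockout replicates 1 and 4. Atp6v0a4 and Atp6v0b were the 2 of 33 members without overlap between the groups (6.06%), against 5.23% of all genes (2.33% higher and 2.9% lower), so with all arrays this share is near the background. Without Atp6v0a4 and Ctse, which were tested only through their knockout signals, 1 of 31 had no overlap. The share over the 33 members, which includes Atp6v0a4, depended on single arrays. Without control replicate 1 it was 21.2% (7 genes) against 14% of all genes. Without knockout replicate 2 it was 24.2% (8 genes) against 13%. Without any other single array it was 6.06% to 9.09%, against 6.89% to 10.7% of all genes. In those settings it was below all genes, except without knockout replicate 4 (9.09% against 7.27%).

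Atp6v0d1 encodes the subunit that joins the rotor ring to the central stalk. Its signals were 8.13, 7.95, 7.99 and 7.95 in control hearts and 8.24, 8.12, 8.15 and 7.96 in knockout hearts. The groups overlapped, with knockout replicate 4 among the low controls. The difference was 0.11 ± 0.08 (SE; limma adjusted p = 0.625). The small e subunits went opposite ways, Atp6v0e by 0.18 ± 0.08 and Atp6v0e2 by -0.07 ± 0.13, and neither passed. Atp6v0d2, the d isoform of osteoclasts and some macrophages, lay below the filter at 2.27 and 2.35. Of 8 osteoclast markers, Calcr and Oscar also lay below it. Among the 6 tested, 3 were higher in the knockout and 3 lower (median -0.02). Over the V0 sector 6 of 7 tested genes were higher, with a median of 0.11, and 5 of 6 without Atp6v0a4 (median 0.08).

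In the V1 sector 6 genes were higher and 5 were lower (median difference 0.07), and with all arrays 0 had an unadjusted p under 0.05. Atp6v1a encodes the catalytic A subunit, which hydrolyses ATP. It was at 7.02, 6.82, 6.96 and 6.90 in control hearts and at 7.32, 6.91, 6.94 and 7.08 in knockout hearts. Knockout replicate 1 stood above the rest, and the difference of 0.14 ± 0.10 (SE; limma adjusted p = 0.611) was 0.0016 without knockout replicates 1 and 4.

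The B subunit that pairs with it in most tissues, Atp6v1b2, gave 8.71, 8.84, 8.79 and 8.78 in control hearts and 8.88, 8.76, 8.98 and 8.82 in knockout hearts. These ranges overlapped, and the difference was 0.07 ± 0.08 (SE; limma adjusted p = 0.72). A dimmer probe set of this gene differed by 0.10. Atp6v1h encodes the H subunit, which holds detached V1 inactive and lets the assembled pump run. Its signals were 6.82, 6.89, 6.90 and 6.77 against 7.02, 6.77, 6.95 and 7.07, a difference of 0.11 ± 0.08 (SE; limma adjusted p = 0.623). Knockout replicate 2 was at the level of the lowest control.

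The stalk subunits differed by 0.13 ± 0.09 for Atp6v1c1, 0.07 ± 0.07 for Atp6v1e1, 0.07 ± 0.09 for Atp6v1g1, -0.05 ± 0.07 for Atp6v1d and -0.13 ± 0.14 for Atp6v1f. Without knockout replicate 4 Atp6v1f was at -0.27 with no overlap and an unadjusted p under 0.05 (limma adjusted p = 0.681), and without knockout replicate 1 it was at -0.07. Atp6v1g1 was at -0.04 without knockout replicates 1 and 4. Atp6v1g1 had 2 dimmer probe sets with means under the filter, which differed by 0.21 and 0.09. Isoforms with restricted expression, Atp6v1e2 of the testis (-0.0016 ± 0.07) and Atp6v1g2 of neurons (-0.02 ± 0.12), turned sign under 3 and 4 of the alternative settings. Atp6v1c2 and Atp6v1g3, known from kidney and other epithelia, lay below the filter, as did Atp6v1fnb.

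Lamp1 and Lamp2 are known as abundant glycoproteins of the lysosomal membrane, and loss of Lamp2 causes a heart muscle disease with blocked autophagy. Lamp1 signals were 10.61, 10.43, 10.40 and 10.47 in control hearts and 10.64, 10.49, 10.42 and 10.51 in knockout hearts. For Lamp2 they were 9.34, 9.09, 9.07 and 9.19 against 9.31, 9.18, 9.20 and 9.40. Both genes overlapped between the groups, with control replicate 1 near the top of each. The differences were 0.04 ± 0.08 for Lamp1 (95% interval -0.14 to 0.22) and 0.10 ± 0.09 for Lamp2 (-0.09 to 0.30), with limma adjusted p-values of 0.883 and 0.666. Without knockout replicate 1 Lamp1 was at -0.0034.

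The plot by array sets these groups side by side with 3 marker lists. Cathepsins deviated from their 8-array mean by 0.12, -0.15, -0.24 and -0.06 in control replicates 1 to 4 and by 0.20, 0.06, -0.07 and 0.15 in knockout replicates 1 to 4. The V1 sector stayed within -0.07 to 0.09. Ventricular cardiomyocyte markers had their lowest values in the knockout hearts where cathepsins were highest, at -0.24 and -0.20 in replicates 1 and 4. Of those 12 markers 10 were lower in the knockout, with a median of -0.14 and 0 called, and their mean log2 signal ran from 11.33 to 11.45 in control and from 11.08 to 11.39 in knockout hearts. Their part in the result was not tested.

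**Figure D3:**
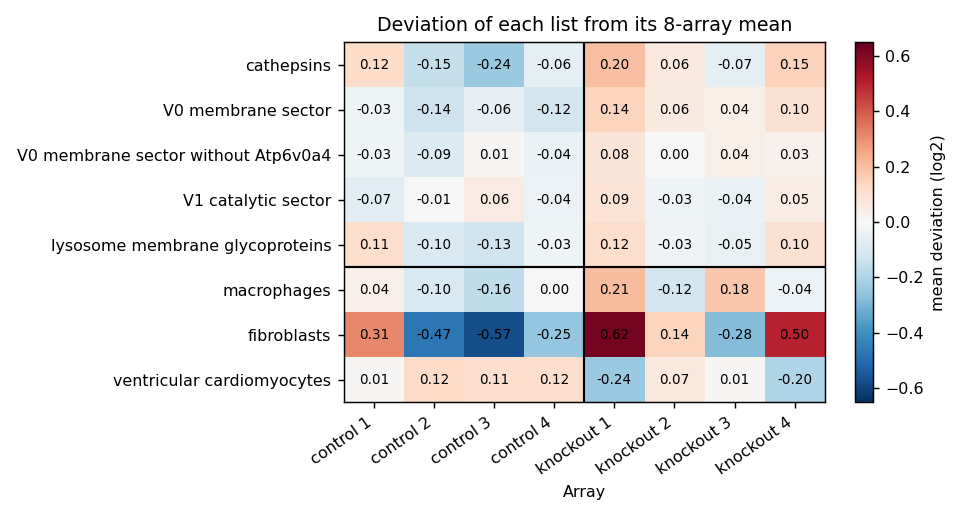
Mean deviation (log2, colour and number) of 5 groups of the lysosomal genes and 3 marker lists from their 8-array means, with arrays in columns and a line between control and knockout hearts. The means of cathepsins and of fibroblast markers are both above 0 in control replicate 1 and knockout replicates 1, 2 and 4. The macrophage mean, over markers that differ in direction, is not above 0 in knockout replicates 2 and 4.

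The 7 genes with TCACGTG in the promoter window were all higher in the knockout, by 0.04 to 0.18 with a median of 0.14, and none passed the test. That all 7 were higher rested on knockout replicate 1: without it Lamp1 was at -0.0034 and the median was 0.07. Without knockout replicates 1 and 4, 5 of the 7 were higher, with Lamp1 at -0.02, Ctsd at -0.02 and Atp6v1a at 0.0016. Of 17 tested members with a window and no TCACGTG, 10 were higher, with a median of 0.05 and a range of -0.13 to 0.74. Over all genes tested, 51.4% of 747 with the element were higher and 51% of 10928 without it. The genes that code for the factors themselves, named here because of the element, were not called: Tfeb differed by 0.20 ± 0.09 (limma adjusted p = 0.457), Tfe3 by 0.05 ± 0.09 and Mitf by -0.20 ± 0.14, and Tfec lay below the filter.

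Other genes of the lysosome showed small differences of both signs, and limma called 0 in each list at an adjusted p of 0.05. Hydrolases of lipids, sulfates, phosphates and peptides had 21 of 24 genes higher, with a median of 0.15 and 4 at an unadjusted p under 0.05. They included Scpep1, a serine carboxypeptidase (0.24 ± 0.08), Ifi30, the thiol reductase of antigen processing (0.35 ± 0.15), and Lipa, the acid lipase (0.27 ± 0.12). Among glycosidases 10 of 14 were higher (median 0.06). Manba, the beta-mannosidase, was the 1 gene at that p (0.19 ± 0.08). The next by p were Aga, which frees sugars from asparagine, at -0.21 ± 0.10, and Gla, the alpha-galactosidase lacking in Fabry disease, at 0.21 ± 0.12.

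Accessory and assembly genes of the pump had 10 of 16 higher (median 0.05). Atp6ap1, an accessory subunit of V0, went from 9.11 ± 0.04 to 9.32 ± 0.10 (SD, n = 4), a difference of 0.21 ± 0.08 with no overlap between the groups. Tldc2, of the TLDc family, differed by 0.30 ± 0.08, and Dmxl2, of the complex that reassembles V1 with V0, by -0.32 ± 0.10, also without overlap. These 3 genes had limma adjusted p-values of 0.421.

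Membrane and transport genes had 20 of 30 higher (median 0.05), with Litaf at 0.33 ± 0.11, Slc11a1, a metal transporter of phagocytes, at 0.26 ± 0.10 and Mfsd8 at -0.26 ± 0.08. Sorting genes had 12 of 19 higher (median 0.02). The smallest p-values were those of Gga3, an adaptor of the receptors, at -0.23 ± 0.08, Ap1s1, of the AP-1 coat adaptor, at 0.36 ± 0.17, and M6pr, the small mannose 6-phosphate receptor, at 0.16 ± 0.08. In the list of MiT factors and Ragulator-Rag genes, which tie the lysosome to mTORC1, 7 were higher and 7 lower (median -0.02). The 3 members with an unadjusted p under 0.05 were lower in the knockout: Rragd, a Rag GTPase, by -0.36 ± 0.12, and Flcn and Fnip2, which act together on that GTPase, by -0.30 ± 0.11 and -0.26 ± 0.09. Cystatins and stefins, the inhibitors of cysteine cathepsins, had 3 tested genes, with Cstb at 0.32 ± 0.15, Cst3 at 0.28 ± 0.14 and Cst7 at 0.0037 ± 0.11. All 9 rodent placental cathepsins lay below the filter.

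**Figure D4:**
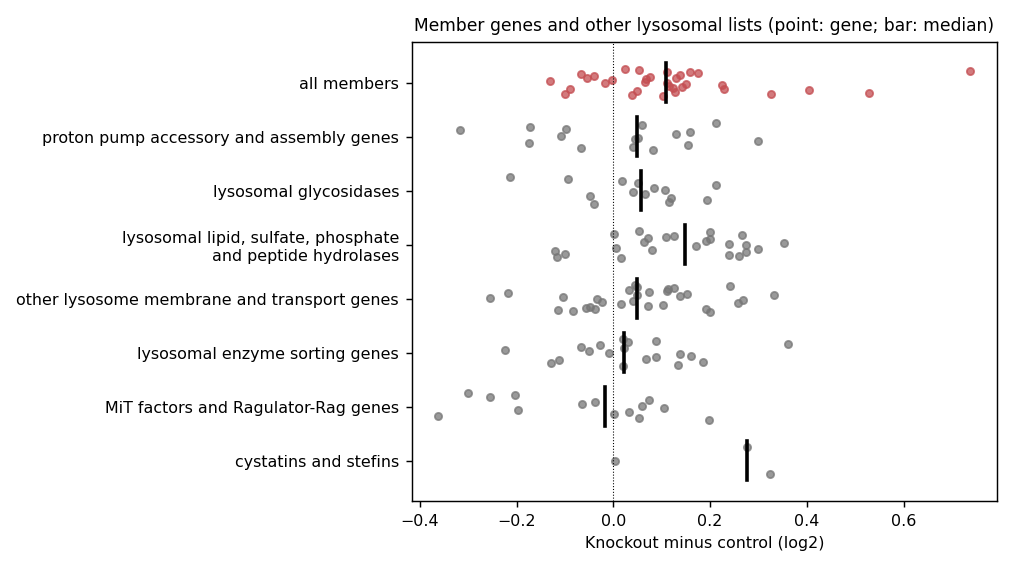
Difference between knockout and control hearts (log2, x axis) for the tested genes of the proton pump, cathepsin and Lamp set (top row) and of 7 other lysosomal lists, with a point per gene and a bar at the median. Medians run from -0.02 for MiT factors and Ragulator-Rag genes to 0.28 for the 3 cystatins and stefins, and Atp6v0a4 is the point at 0.74.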

How the data were processed

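For each of 8 arrays the authors deposited log2 signals, 41345 probe sets in all. The tools were RMA and limma (no version), per the submitters' processing notes. No source used here gives array batches or the genome build. RMA as usually run normalizes by quantiles, so a shift common to all genes would not be visible.

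Members and gene lists were chosen with earlier results of these data known. Symbols came from the platform annotation (1 symbol for 23521 probe sets, several for 1814, none for 16010) and 23328 were matched to RefSeq by Entrez identifier. Each of 22180 genes was read from its brightest probe set, and 15086 with a mean of at least 3.80 were tested. Knockout was compared with control by limma 3.58.1 (lmFit and eBayes) in R 4.3.3, with Benjamini-Hochberg adjustment over all genes tested. Differences carry the standard errors of that fit. The fit was tested on simulated data. Every member is named. Array values are given for members with an unadjusted p under 0.05 or no overlap and for a fixed panel, and for each other list up to 3 genes with the smallest p are named. Lists are described by counts and medians. Promoter letters came from RefSeq (GRCm38.p6). Alternatives were other filters, normalizations, probe set and variance choices, the replicate number as a block, an adjusted p of 0.1 and leaving out arrays.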

Additional observations from a re-analysis of the deposited data

Results flagged for a closer look

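In 4 of 68 groups of 4 arrays (33 genes and Cited4, each in 2 genotypes) 1 array lay far from the other 3, where chance gives about 1 in 20. Ctsz was at 8.54 in control replicate 1, above the other controls at 8.28 to 8.30. Atp6v1d was at 8.51 in control replicate 1, below the other controls at 8.65 to 8.68. Atp6v0b was at 8.90 in knockout replicate 1, above the other knockout hearts at 8.65 to 8.68. Ctsc was at 8.11 in knockout replicate 2, below the other knockout hearts at 8.38 to 8.43.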

How the results depend on the processing

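Under all alternatives limma called 0 members and 0 genes at an adjusted p of 0.05, and 0 at 0.1 in the setting as reported. With 1 array fewer, members at an unadjusted p under 0.05 numbered 2 to 7 (3 as reported) and those without overlap 2 to 8 (2 as reported). Atp6v0a4 is in each of these counts. The highest counts came without control replicate 1 (6 and 7) and without knockout replicate 2 (7 and 8), where 14.3% and 15.8% of all genes had that p. Trend with robust estimation and array weights each gave 5 members at that p (15.2%, against 11.8% and 13.8% of all genes) and the replicate block 6 (18.2% against 14.4%). The setting without knockout replicates 1 and 4 together, chosen after seeing the data, gave 1, Atp6v0a4 (3.03% against 4.09%). Members without overlap numbered 1 with the filter at the 60th percentile (which leaves out Atp6v0a4), with quantile normalization again (Atp6v0b) and with a common array median (Atp6v0a4); the cause was not tested.

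The V1 median was -0.0016 with no filter, which adds 2 low genes, and -0.0217 without knockout replicates 1 and 4. The V0 and cathepsin medians kept their sign under all 17 alternatives, at 0.07 to 0.15 and 0.07 to 0.20. They include Atp6v0a4 and Ctse, which were tested only through their knockout signals. Of the 33 members 22 kept their sign under all alternatives in which they were tested. Other filters, trend with robust estimation and the replicate block cannot change the difference of a gene, so these settings could not turn its sign. Filters change only which genes enter a median. Besides the sign changes given with the results, Atp6v0e2 (0.04) and Atp6v1b1 (0.07) turned without control replicate 3, Atp6v0a1 with a common array median (-0.0015) and without knockout replicates 1 and 4 (-0.0016), and Ctsl without knockout replicate 4 (-0.0095). Cited4 ran from -0.99 to -0.83. No source says that equal numbers mark pairs, so the main fit has no pairing. Same-numbered hearts did not all deviate together (correlations 0.36, 0.01, 0.28 and -0.03 for numbers 1 to 4), which cannot decide whether they were paired. With the replicate block the limma p was 0.000752 for Ctss (adjusted p = 0.146) and 0.018 for Ctsk (adjusted p = 0.24). Without it they were 0.0235 and 0.233.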
